A study of Caenorhabditis elegans with 16 samples.

Results

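Superoxide dismutases and catalases are the enzymes that remove superoxide and hydrogen peroxide, and the worm *C. elegans* has 5 genes of the first kind, *sod-1* to *sod-5*, and 3 of the second, *ctl-1* to *ctl-3*. The genes were chosen by name in the annotation of the array, each of the 8 was paired with 1 probe set, and they are 8 of the 25498 genes that were tested. Whole larvae, at the L3 stage by the sample labels and at L3/L4 by the methods, gave the RNA for a set of Affymetrix arrays for *C. elegans*. The 4 groups of 4 samples were starved *alfa-1(ok3062)* worms, well-fed *alfa-1(ok3062)* worms, starved N2 worms and well-fed N2 worms, 16 samples in all. N2 is the wild-type strain, and *alfa-1(ok3062)* carries a deletion with an insertion, which the study took to be a probable null allele, in *alfa-1*, the worm orthologue of the human gene C9orf72. All worms were grown at the same temperature on plates with the *E. coli* strain OP50, and starved worms were then rocked in M9 buffer for 6 hr without food. For the well-fed worms the labels give 6 hr in M9 buffer with food, whereas the methods describe pellets that were frozen at once, and in that case the lack of food cannot be told apart from 6 hr of further age, buffer and handling. The labels name the strains IW313 and IW314, although the source names give IW314 for all samples, and the methods name RB2260 and N2. The mutant had been crossed back to N2 before use, and the sources used here do not say what else the 2 strains still differ in. Worms of a strain were divided into tubes and nothing says that the 4 samples of a group were separate cultures, so every p-value rests on the spread among these samples alone, and that spread may be technical.

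Superoxide arises mainly as a by-product of respiration. Dismutases turn it into hydrogen peroxide and oxygen, and catalases break hydrogen peroxide down to water and oxygen. In the worm SOD-1 and SOD-5 are the cytosolic copper and zinc enzymes, SOD-2 and SOD-3 are the manganese enzymes of the mitochondrion, and SOD-4 is a copper and zinc enzyme that is secreted or held at the cell surface. CTL-2 is the catalase of peroxisomes, CTL-1 is cytosolic, and the role of CTL-3 is less well described. The gene *sod-3* is widely used as a reporter of DAF-16, the FOXO transcription factor that is held in the cytoplasm by insulin-like signalling and enters the nucleus when that signalling falls.

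The members that passed as higher without food were 2 of the 3 catalase genes, *ctl-3* in both strains and *ctl-1* in N2. None of the 5 dismutase genes passed the test in any comparison. Of all genes, 10.9% were higher without food in the mutant and 10.8% in N2. With so few genes these counts do not set the catalases apart from the dismutases. In *alfa-1(ok3062)* worms *ctl-3* rose 1.56-fold, and in N2 worms *ctl-3* rose 1.82-fold and *ctl-1* 1.43-fold. The other catalase values without food ranged from 1.16-fold to 1.20-fold and did not pass. The dismutase gene *sod-4* had 1.52-fold in the mutant, close to *ctl-3* there, and did not pass either. Between the strains no member passed, with or without food. The test was limma, a linear model with moderated variances, fitted to the log2 values of all 25498 genes in the 16 samples, and a gene passed at a Benjamini-Hochberg adjusted p under 0.05.

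Facts of the whole series were these. The log2 value of *alfa-1* lay between 7.39 and 7.67 in the 8 mutant samples and between 9.11 and 9.59 in the 8 N2 samples, so its value followed the labels in every sample, although the sources used here do not place its probes relative to the deletion. The median log2 value of an array lay between 5.80 and 5.85. N2 starved replicate 3 and N2 starved replicate 1 lay farthest from the mean of their group, with a root mean square deviation over all probe sets of 0.296 and 0.251, where the other 14 samples had 0.158 to 0.242. The number of arrays, 4 in each group, limits the precision.

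**Figure D1:**
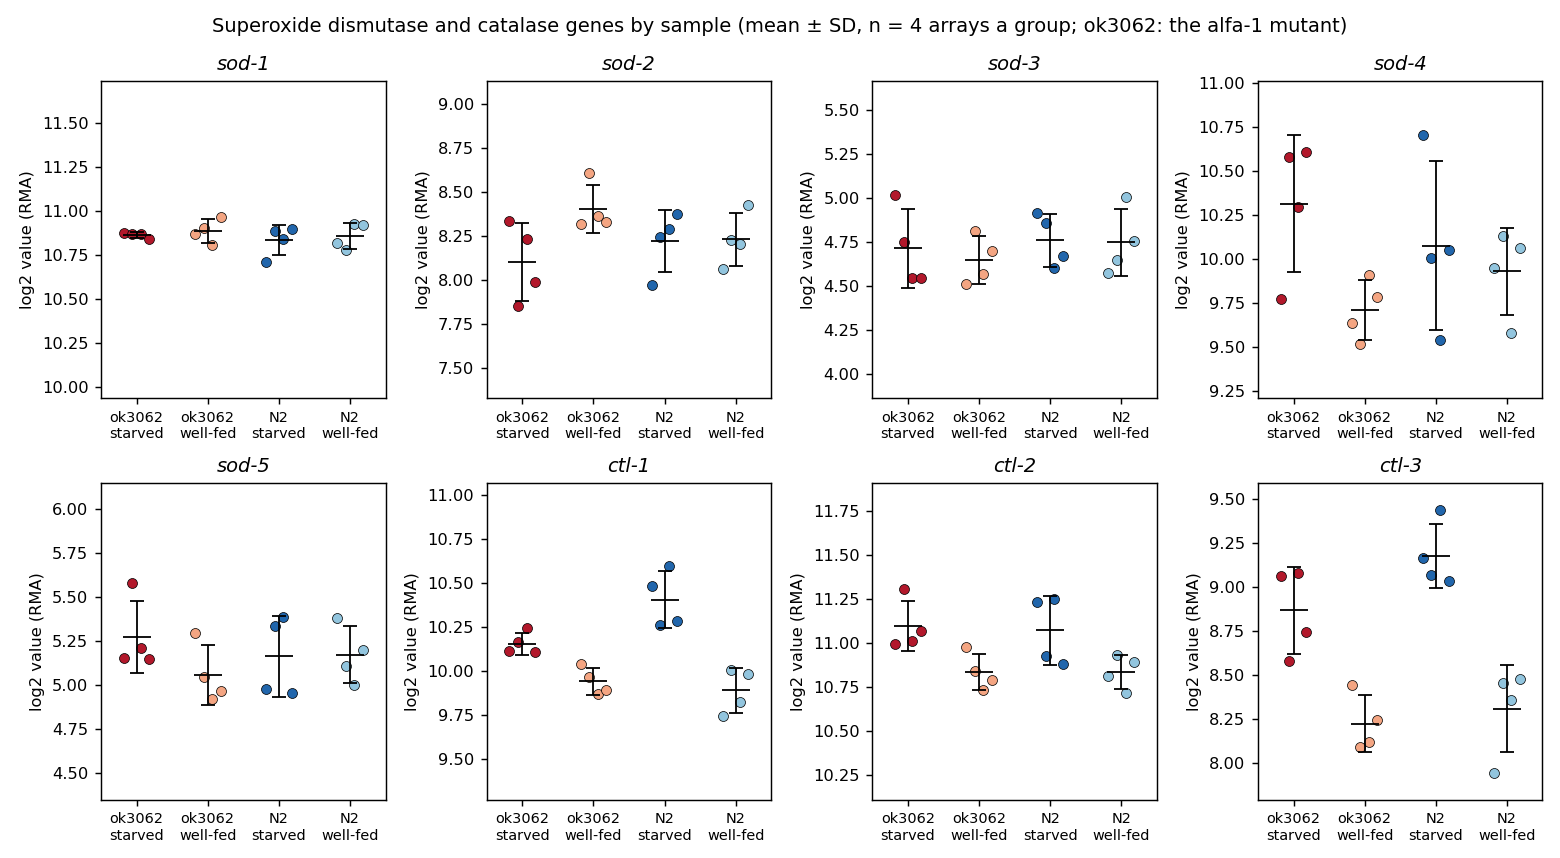
Log2 values (RMA, vertical axes, each spanning the same number of log2 units) of the 8 genes in the 16 samples, with a point for each sample, a bar for the mean and whiskers for the SD (n = 4); ok3062 is the *alfa-1* mutant. For *ctl-3* all starved samples lie above all well-fed samples of the same strain, whereas the *sod-1* samples lie between 10.71 and 10.97 in all groups.

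In the *alfa-1(ok3062)* strain 1 of the 8 members was higher without food and 0 were lower, where 10.9% of all genes were higher and 14.3% lower. In N2, 2 of 8 were higher and 0 were lower, where 10.8% of all genes were higher and 11.6% lower. With 8 genes, a count of 1 is close to the share among all genes and a count of 2 differs from it by about 1 gene. With limma p-values left unadjusted and the same threshold, 4 members were higher and 1 was lower in the mutant, where 16.3% and 20.1% of all genes were, and 3 were higher and 0 lower in N2, where 17.6% and 16.7% were. The median log2 fold change of the 8 members was 0.21 in the mutant, beside -0.02 over all genes, and 0.08 in N2, beside 0.01 over all genes.

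The largest change belonged to *ctl-3*. Its log2 values in replicates 1 to 4 were 9.07, 8.58, 9.08 and 8.75 in starved *alfa-1(ok3062)* worms, against 8.45, 8.09, 8.12 and 8.24 in well-fed *alfa-1(ok3062)* worms. In N2 they were 9.16, 9.07, 9.44 and 9.04 in starved worms, against 7.95, 8.46, 8.36 and 8.48 in well-fed worms. Every starved sample was above every well-fed sample of its strain, and the lowest of all 16 values was that of a well-fed N2 sample. The means were 8.87 ± 0.246 and 8.22 ± 0.161 in the starved and well-fed mutant (SD, n = 4 each), which is a log2 fold change of 0.64 (standard error, SE, 0.142, limma adjusted p = 0.00388). In N2 they were 9.18 ± 0.183 in starved and 8.31 ± 0.249 in well-fed worms (SD, n = 4 each), a log2 fold change of 0.87 (SE 0.142, limma adjusted p = 0.000495). Permuting the 8 samples of a strain in an exact, two-sided permutation test gave p = 0.0286 in both strains, and 4 samples against 4 cannot give a smaller one.

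For *ctl-1*, the cytosolic catalase, the rise was clearer in N2. Its log2 values were 10.11, 10.16, 10.24 and 10.11 in starved *alfa-1(ok3062)* worms, against 10.04, 9.97, 9.87 and 9.90 in well-fed ones. In N2 they were 10.48, 10.26, 10.60 and 10.29 in starved worms, against 9.74, 10.01, 9.83 and 9.99 in well-fed ones. The starved samples were above the well-fed samples in both strains, by a gap between the nearest samples that was smaller in the mutant. The log2 fold change of starved over well-fed worms was 0.21 in the mutant (SE 0.0887, limma adjusted p = 0.0915, which did not pass) and 0.52 in N2 (SE 0.0887, limma adjusted p = 0.000699). The mutant value passed in 0 of the 8 fits that left out 1 array (adjusted p between 0.0875 and 0.191 from limma) and in 3 of 10 other fits. These include arrays normalized again by cyclic loess (log2 fold change 0.24, adjusted p = 0.0325 from limma) and the average over both strains, which is a different quantity.

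The peroxisomal catalase gene *ctl-2* was shifted by about the same size in both strains without passing. Its log2 values were 10.997, 11.31, 11.01 and 11.07 in starved *alfa-1(ok3062)* worms, against 10.98, 10.84, 10.73 and 10.79 in well-fed ones. In N2 they were 11.23, 10.93, 11.25 and 10.88 in starved worms, against 10.81, 10.93, 10.72 and 10.89 in well-fed ones. The groups did not overlap in the mutant, though replicate 1 of starved and of well-fed worms nearly met, and in N2 starved replicates 2 and 4 lay within the range of the well-fed samples. Its log2 fold change was 0.26 in the mutant and 0.24 in N2 (SE 0.102 each, adjusted p = 0.0741 and 0.114 from limma). Samples did not overlap between starved and well-fed worms for 3 members in the mutant, all catalases and all higher, where 11.7% of all genes were higher and 15.7% lower without overlap. In N2 this held for *ctl-1* and *ctl-3*, both higher, where 12.2% of all genes were higher without overlap and 12.2% lower.

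Both N2 starved samples that stood apart from their group, replicates 1 and 3, had the highest N2 values of *ctl-1*, *ctl-2* and *ctl-3*. Without replicate 3 the log2 fold changes in N2 were 0.45 for *ctl-1* (adjusted p = 0.00229 from limma), 0.18 for *ctl-2* (adjusted p = 0.271) and 0.78 for *ctl-3* (adjusted p = 0.00185). Without replicate 1 they were 0.49, 0.18 and 0.87 (adjusted p = 0.00284, 0.274 and 0.00157 from limma).

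**Figure D2:**
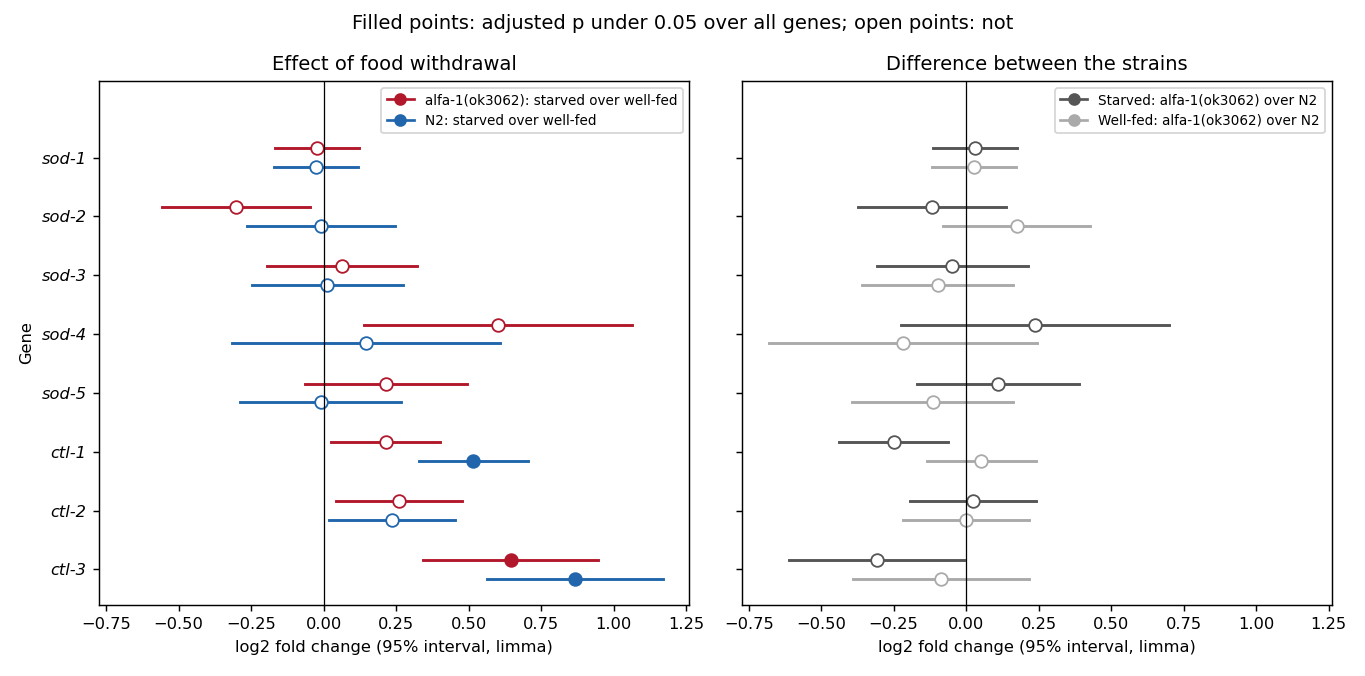
Log2 fold changes of the 8 genes (points) with 95% intervals from limma (lines), for starved over well-fed worms in each strain (left) and for *alfa-1(ok3062)* over N2 worms, starved and well-fed (right). Filled points had an adjusted p under 0.05 over all 25498 genes, which holds for *ctl-3* in both strains and for *ctl-1* in N2, and for no point on the right.

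Among the dismutases *sod-4*, the extracellular enzyme, varied most. In starved *alfa-1(ok3062)* worms its log2 values were 9.77, 10.58, 10.29 and 10.61, against 9.63, 9.52, 9.91 and 9.78 in well-fed ones. The starved N2 samples had 10.70, 10.01, 9.54 and 10.05, against 9.95, 10.13, 9.58 and 10.06 in well-fed N2. Replicate 1 of the starved mutant lay within the well-fed range, and starved N2 samples lay above, within and below theirs. The log2 fold change was 0.60 in the mutant (SE 0.218, 95% interval 0.14 to 1.06, adjusted p = 0.0545 from limma) and 0.15 in N2 (SE 0.218, interval -0.32 to 0.61, adjusted p = 0.695). Without replicate 1 of the starved mutant, the starved value nearest the well-fed ones, the change there was 0.78 (adjusted p = 0.0130 from limma). Of the 8 fits that left out 1 array, 1 passed for *sod-4* in the mutant, and the largest adjusted p was 0.151. Its SD within groups was 0.343, where the median gene had 0.176.

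The major mitochondrial enzyme gene, *sod-2*, was the member with a negative value of any size. Its log2 values were 8.34, 7.85, 8.23 and 7.99 in starved *alfa-1(ok3062)* worms, against 8.32, 8.61, 8.36 and 8.33 in well-fed ones. In N2 they were 7.97, 8.24, 8.29 and 8.38 in starved worms, against 8.06, 8.22, 8.21 and 8.43 in well-fed ones. The mutant groups met at replicate 1 of the starved worms, and the N2 groups overlapped throughout. The log2 fold change was -0.30 in the mutant (SE 0.120, limma adjusted p = 0.0790) and -0.010 in N2 (SE 0.120, adjusted p = 0.966). Without replicate 1 of the starved mutant, the starved value nearest the well-fed ones, it was -0.38 in the mutant (adjusted p = 0.0338 from limma). Of the 8 fits that left out 1 array, 1 passed for *sod-2* in the mutant, and the largest adjusted p was 0.220. With all samples kept, array weights also brought *sod-2* (adjusted p = 0.0428 from limma) and *sod-4* (adjusted p = 0.0119) past the threshold in the mutant.

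The cytosolic *sod-1* was the steadiest member. Its means were 10.87 ± 0.0152 and 10.89 ± 0.0669 in the starved and well-fed mutant, and 10.84 ± 0.0858 and 10.86 ± 0.0738 in starved and well-fed N2 (SD, n = 4 each). The 16 values lay between 10.71 and 10.97, and 99.3% of all genes had a larger SD over the 16 samples. Its starvation changes had 95% intervals of 0.891-fold to 1.09-fold in the mutant and 0.889-fold to 1.09-fold in N2, and larger changes in either direction lay outside both.

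For *sod-3* and *sod-5* the values were low. The log2 values of *sod-3* lay between 4.55 and 5.02 in starved and between 4.51 and 4.82 in well-fed *alfa-1(ok3062)* worms, and between 4.60 and 4.92 in starved and 4.58 and 5.01 in well-fed N2. Those of *sod-5* lay between 5.15 and 5.58 and between 4.92 and 5.30 in the starved and well-fed mutant, and between 4.95 and 5.39 and between 5.004 and 5.38 in starved and well-fed N2. All these values were below the median of their array, and the deposited values do not say whether a probe set is above background. The groups overlapped in every comparison. The log2 fold change of *sod-3* without food was 0.06 in the mutant (95% interval -0.20 to 0.32, adjusted p = 0.753 from limma) and 0.013 in N2 (interval -0.25 to 0.27, adjusted p = 0.956). That of *sod-5* was 0.22 in the mutant (interval -0.06 to 0.49, adjusted p = 0.255) and -0.010 in N2 (interval -0.29 to 0.27, adjusted p = 0.968).

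The 2 strains were compared next. In starved worms 0 of the 8 members passed limma between *alfa-1(ok3062)* and N2, where 0.0941% of all genes did, and in well-fed worms 0 passed where 0.0902% of all genes did. In well-fed worms 0 members had an unadjusted p under 0.05 in either direction, where 2.34% of all genes were higher and 2.38% lower. Left unadjusted, limma p-values were under 0.05 in starved worms for 2 members that were lower, *ctl-1* and *ctl-3*, where 7.27% of all genes were, and for 0 that were higher, where 4.86% of all genes were. By the methods' t-test without adjustment 1 member was lower and 0 were higher in starved worms, where 4.39% of all genes were lower and 2.52% higher. The starved *ctl-1* samples lay between 10.11 and 10.24 in the mutant, against 10.26 to 10.60 in N2, a log2 fold change of -0.25 (SE 0.0887, limma adjusted p = 0.320, exact permutation p = 0.0286). It was the only member whose strains did not overlap, where 2.76% of all genes were lower without overlap. For *ctl-3* the starved samples lay between 8.58 and 9.08 in the mutant, against 9.04 to 9.44 in N2, a log2 fold change of -0.31 (SE 0.142, limma adjusted p = 0.403, exact permutation p = 0.143). Both values shrank without N2 starved replicate 3, to -0.19 for *ctl-1* (adjusted p = 0.635 from limma) and -0.22 for *ctl-3* (adjusted p = 0.740).

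The other strain values did not pass either. Their intervals are not adjusted for the number of genes and do not show what size of change would have passed. In starved worms *ctl-2* had a 95% interval of 0.875-fold to 1.18-fold for mutant over N2 and *sod-1* one of 0.925-fold to 1.13-fold. The interval of *sod-4* in starved worms was the widest, 0.855-fold to 1.62-fold. With food, the 8 members had log2 fold changes between -0.22 for *sod-4* and 0.17 for *sod-2*, all at a limma adjusted p that rounds to 1.0.

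Whether the response to food withdrawal differed between the strains was tested as an interaction, the change in *alfa-1(ok3062)* minus the change in N2. Of the 8 members 0 passed limma, as did 0% of all 25498 genes. Left unadjusted, the limma p was under 0.05 for 0 members with a positive difference, where 2.73% of all genes had one. It was under 0.05 for 1 member with a negative difference, *ctl-1*, where 3.71% of all genes had one. Its log2 fold change was 0.21 in the mutant and 0.52 in N2, a difference of -0.30 (SE 0.125, 95% interval -0.57 to -0.04, limma adjusted p = 0.735). That of *ctl-3* was 0.64 in the mutant and 0.87 in N2, a difference of -0.22 (interval -0.65 to 0.21, adjusted p = 0.795). For *sod-4* the difference was 0.46 (interval -0.20 to 1.11, adjusted p = 0.750), and for *sod-2* -0.29 (interval -0.65 to 0.07, adjusted p = 0.741). No strain difference of the food response passed in any member.

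Over the 16 samples the catalases followed each other, as a description that counts samples sharing a strain, a food state and the normalization. The Pearson correlation of log2 values was 0.92 between *ctl-1* and *ctl-3*, 0.78 between *ctl-1* and *ctl-2* and 0.66 between *ctl-2* and *ctl-3*. Measured from the mean of each group it was 0.70, 0.74 and 0.17 for the same pairs, so that samples of 1 group that were high in *ctl-1* also tended to be high in the other catalases. Of the dismutases, *sod-2* and *sod-4* ran against each other with -0.74, and with -0.62 from the group means. The 3 catalase genes resemble one another in sequence, as do *sod-1* and *sod-5*, and *sod-2* and *sod-3*, and the sources used here do not say how far a probe set reads RNA of such a relative.

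The genes whose values were most like those of *ctl-3* over the 16 samples were *mcm-10*, *anc-1* and *ddn-1*, with Pearson correlations of 0.96 each. These genes, and those for *ctl-1* below, were picked by correlation with a gene that moved with food. A food change of the same sign follows from that choice, so their changes are a description only. Without food *mcm-10*, a DNA replication gene, had a log2 fold change of 0.27 in the mutant and 0.41 in N2 (adjusted p = 0.0197 and 0.00146 from limma). That of *anc-1*, which encodes a large protein that anchors nuclei, was 0.18 and 0.38 in these strains (adjusted p = 0.121 and 0.00383), and that of *ddn-1* was 1.08 and 1.47 (adjusted p = 0.00324 and 0.000345). Most like *ctl-1* were *mbk-2*, a protein kinase gene, *unc-130*, a forkhead transcription factor gene, and *T28B11.1*, with correlations of 0.94 each. The changes of these 3 genes without food were positive in both strains, and that of *mbk-2* in the mutant, 0.19, did not pass (limma adjusted p = 0.0579).

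**Figure D3:**
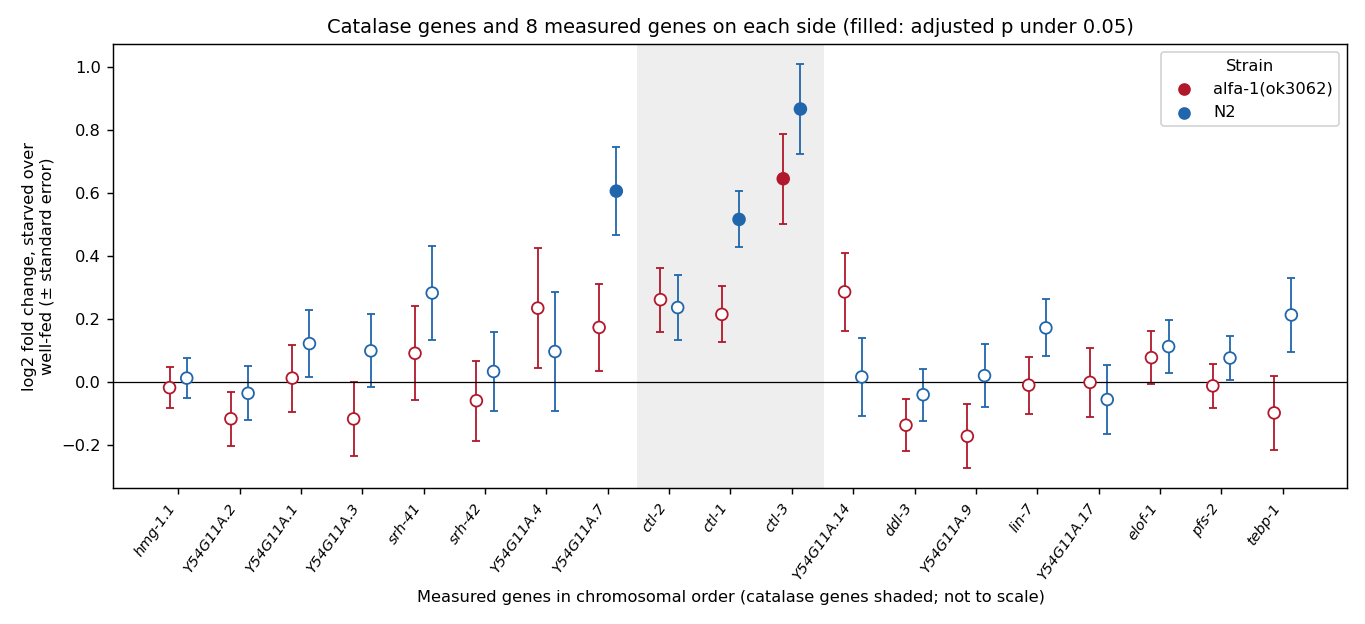
Log2 fold change of starved over well-fed worms (± standard error, vertical axis) for the 3 catalase genes (shaded) and 8 measured genes on each side in chromosomal order, in *alfa-1(ok3062)* (red) and N2 (blue). Filled points had an adjusted p under 0.05, and besides *ctl-1* and *ctl-3* the single filled neighbour is *Y54G11A.7* in N2.

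The 3 catalase genes lie side by side on chromosome II in the order *ctl-2*, *ctl-1*, *ctl-3* in the assembly WBcel235, which may not be the one behind the array. Of the 8 measured genes on either side, 0 of 16 passed without food in the mutant and 1 in N2, with medians of -0.01 and 0.09 on the log2 scale. The neighbour that passed was *Y54G11A.7*, next to *ctl-2* and with an annotated range that overlaps it, with a log2 fold change of 0.17 in the mutant (adjusted p = 0.403 from limma) and 0.61 in N2 (adjusted p = 0.00543). Whether its probe set or that of *ctl-2* reads RNA of the other was not tested, and these neighbours were looked at after the values of the catalases were known. The genes *sod-1* and *sod-5* also lie on chromosome II, as does *alfa-1* itself, whereas *sod-2* lies on I, *sod-4* on III and *sod-3* on X.

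**Figure D4:**
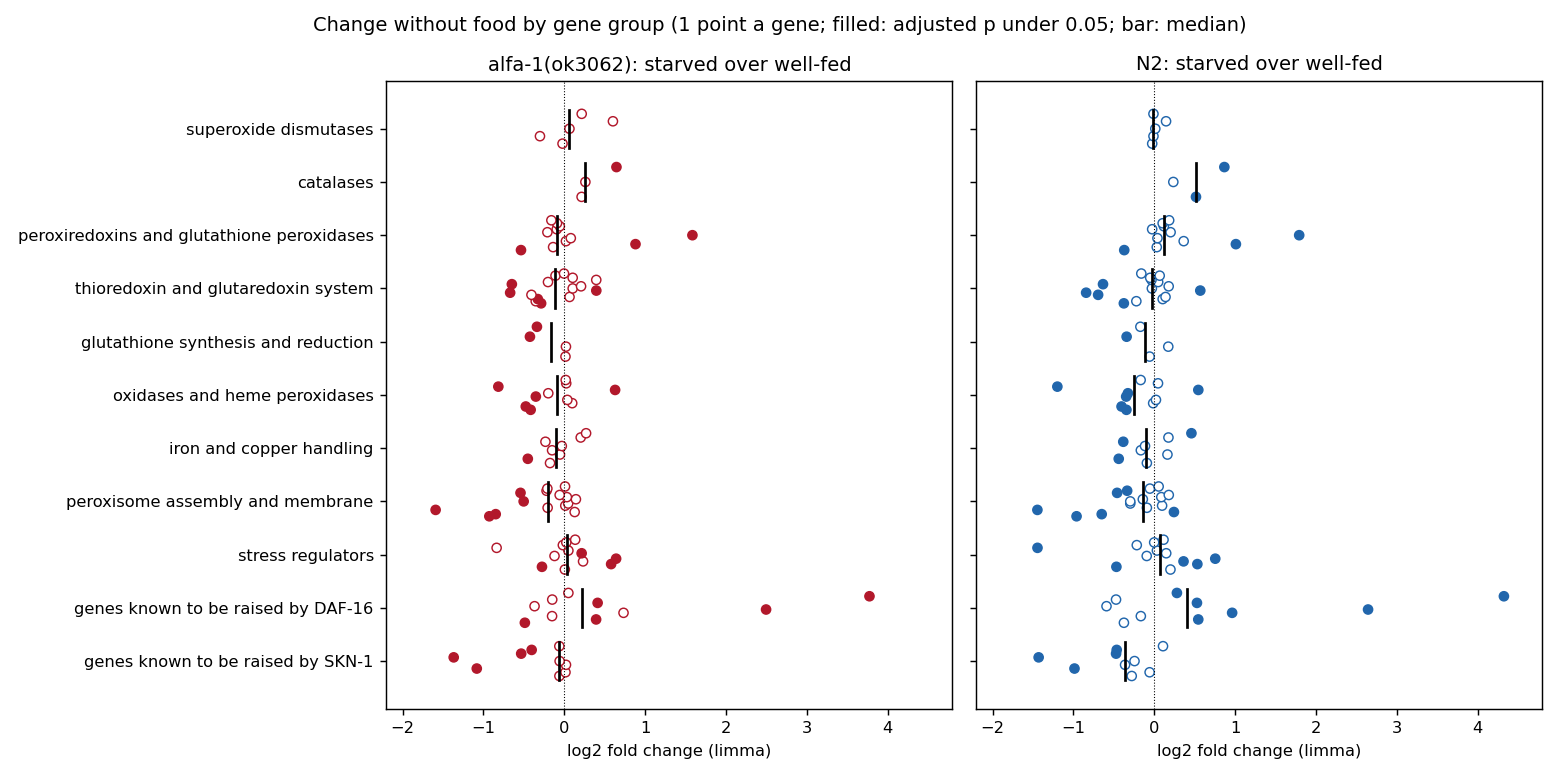
Log2 fold changes of starved over well-fed worms (horizontal axis) in *alfa-1(ok3062)* (left) and N2 (right) for the dismutases, the catalases and 9 lists of related genes, with a point for each gene, filled at an adjusted p under 0.05, and a bar at the median of the list. Catalases lie to the right of 0 in both strains, *mtl-1* is the point farthest to the right and *pmp-5* is the lowest point of the peroxisome list.

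Other enzymes that remove peroxides were measured beside the catalases. The counts of this and the following lists stand beside shares among all genes of 10.9% higher and 14.3% lower in the mutant and 10.8% higher and 11.6% lower in N2, and lists this short give no more than a description. Of 11 peroxiredoxin and glutathione peroxidase genes, 2 rose and 1 fell in each strain without food, which is close to those shares, with medians of -0.09 in the mutant and 0.12 in N2 on the log2 scale. The glutathione peroxidase genes *gpx-6* and *gpx-3* had log2 fold changes of 1.58 and 0.88 in the mutant and 1.79 and 1.01 in N2, and *gpx-1* fell by 0.54 in the mutant and by 0.37 in N2 (adjusted p of at most 0.0065 from limma for each). None of the peroxiredoxin genes *prdx-2*, *prdx-3* and *prdx-6* passed, with log2 fold changes between -0.16 and 0.18. Of 15 genes of the thioredoxin and glutaredoxin system 1 rose and 4 fell in each strain, with medians of -0.11 in the mutant and -0.034 in N2. The gene that rose was *sesn-1*, a sestrin gene, with 0.40 in the mutant and 0.57 in N2 (adjusted p = 0.00819 and 0.000739 from limma). Among those that fell was *msra-1*, which encodes a methionine sulfoxide reductase, with -0.67 and -0.84 in these strains (adjusted p = 0.00184 and 0.000346). The thioredoxin gene *trx-3* had -0.65 and -0.63, and the glutaredoxin gene *glrx-10* had -0.29 and -0.38, and both passed in each strain. The glutathione reductase gene *gsr-1* fell by 0.42 in the mutant and by 0.34 in N2 (adjusted p = 0.000989 and 0.00481 from limma), and of the 4 genes of glutathione synthesis and reduction 2 fell in the mutant, *gss-1* being the other, and 1 in N2.

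Peroxisomes house CTL-2. Of 15 genes for peroxisome assembly and membrane transporters, 0 rose and 5 fell in the mutant, and 1 rose and 5 fell in N2, with medians of -0.21 and -0.14 on the log2 scale. The ABC transporter genes *pmp-5*, *pmp-1* and *pmp-2* had log2 fold changes of -1.59, -0.93 and -0.85 in the mutant and -1.45, -0.96 and -0.65 in N2, and *prx-2*, a peroxisome assembly gene, had -0.54 and -0.46 (adjusted p of at most 0.00159 from limma for each). Of 10 genes for oxidases and heme peroxidases, 1 rose and 4 fell in the mutant and 1 rose and 5 fell in N2. They include *bli-3*, the dual oxidase that makes hydrogen peroxide at the cuticle, with -0.42 in the mutant and -0.34 in N2 (adjusted p = 0.00763 and 0.0237 from limma). Its maturation factor gene *doxa-1* had -0.48 and -0.40, and the peroxidase genes *skpo-2* and *pxn-1* had -0.82 and -0.35 in the mutant and -1.20 and -0.35 in N2. The peroxidase gene that rose was *skpo-1*, with 0.63 in the mutant and 0.54 in N2. Of 8 genes for iron and copper handling 1 fell in the mutant, and 1 rose and 2 fell in N2. The copper chaperone gene *cuc-1* fell in both, by 0.45 in the mutant and by 0.44 in N2 (adjusted p = 0.00736 and 0.00942 from limma). The metal transporter genes *smf-3* and *smf-1* had 0.46 and -0.38 in N2, where both passed, and 0.27 and -0.23 in the mutant, where neither did.

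Regulators of stress responses, transcription factors among them, were read as RNA on the same arrays. Of 12 regulators measured, 3 rose and 1 fell in the mutant, and 3 rose and 2 fell in N2, with medians of 0.038 and 0.07, where 10.9% and 10.8% of all genes rose and 14.3% and 11.6% fell in these strains. Without food *daf-16* had a log2 fold change of 0.58 in the mutant and 0.53 in N2, and *daf-2*, the insulin-like receptor gene, 0.64 and 0.75 (adjusted p of at most 0.000205 from limma for each). The gene *hlh-30*, the worm TFEB, had 0.21 in the mutant (adjusted p = 0.0435) and 0.15 in N2 (adjusted p = 0.172). That of *skn-1*, the Nrf factor of the oxidative stress response, was 0.025 in the mutant and -0.0011 in N2 (adjusted p = 0.868 and 0.994), and *atfs-1*, which acts in the mitochondrial stress response, fell by 0.28 and by 0.47 (adjusted p = 0.0235 and 0.000910). The gene *mxl-3*, a transcription factor that acts against HLH-30, had -0.84 in the mutant (adjusted p = 0.0718) and fell by 1.44 in N2.

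Of 10 genes known to be raised by DAF-16, 4 rose and 1 fell in the mutant, and 6 rose and 0 fell in N2, with medians of 0.22 and 0.40. The largest were *mtl-1*, a metallothionein gene, with log2 fold changes of 3.77 in the mutant and 4.32 in N2, and *hsp-12.6*, a small heat shock protein gene, with 2.50 and 2.64 (adjusted p of at most 6.97e-06 from limma for each). The genes *lea-1* and *dod-6* rose in both strains, with 0.41 and 0.39 in the mutant and 0.53 and 0.54 in N2. On the same arrays *sod-3*, the DAF-16 reporter gene, had 0.06 in the mutant and 0.013 in N2. Its values were all below the median of their array and may not be above background, so they do not show a lack of response. The gene *dod-3* fell in the mutant, by 0.49 on the log2 scale (adjusted p = 0.0242), and had -0.38 in N2 (adjusted p = 0.0818). Of 9 genes known to be raised by SKN-1, 0 rose and 4 fell in each strain, with medians of -0.06 in the mutant and -0.36 in N2. These were the glutathione S-transferase genes *gst-4*, *gst-10* and *gst-7*, with -1.37, -1.08 and -0.53 in the mutant and -1.43, -0.99 and -0.47 in N2, and *nit-1*, a nitrilase gene, with -0.40 and -0.46 (adjusted p of at most 0.0157 from limma for each). None of the genes in these 9 lists passed between the strains, starved or well-fed.

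Tissue and stage genes also differed between starved and well-fed worms. In whole worms, fewer cells of a type cannot be told apart from less RNA per cell. Of 7 intestinal markers 3 fell in the mutant and 2 in N2, and their summed level (log2 of the sum) lay between 13.04 and 13.26 in starved and 13.22 and 13.29 in well-fed *alfa-1(ok3062)* worms, and between 13.19 and 13.32 in starved and 13.27 and 13.36 in well-fed N2. Of 7 hypodermal markers 1 fell in the mutant and 2 in N2, with a summed level between 12.96 and 13.10 in starved and 13.20 and 13.32 in well-fed *alfa-1(ok3062)* worms, and between 12.61 and 13.21 in starved and 13.18 and 13.26 in well-fed N2. Of 7 neuronal markers 1 fell in the mutant and 2 in N2, of 6 of body wall muscle 0 and 1 fell, of 6 of the pharynx 1 rose and 1 fell in each strain, and of 4 sperm genes 2 fell in the mutant and 0 in N2. Of 8 germline markers 1 rose in the mutant and 4 in N2, with a summed level between 14.47 and 14.60 in starved and 14.39 and 14.50 in well-fed *alfa-1(ok3062)* worms, and between 14.63 and 14.73 in starved and 14.44 and 14.51 in well-fed N2. Among 5 genes of the adult cuticle, yolk and its uptake, 2 rose in the mutant and 4 in N2, with a summed level between 13.996 and 14.29 in starved and 13.79 and 13.95 in well-fed *alfa-1(ok3062)* worms, and between 14.17 and 14.37 in starved and 13.71 and 13.93 in well-fed N2. Their part in the rise of *ctl-1* and *ctl-3* was not tested.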

How the data were processed

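RNA of whole worms was hybridised to Affymetrix *C. elegans* arrays, 4 for each of 4 groups, which were assigned from the sample titles. Each deposited value is the log2 expression of a probe set as the authors computed it, for which the submitters' notes list RMA and Partek without versions. RMA subtracts background, gives all arrays 1 common distribution and combines the probes of a set, which removes any shift common to most genes. Depth does not apply to these values, and scanner intensities were not used here.

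Of 29317 probe sets, 25546 were paired with 1 gene by the platform table, 646 with several and 3125 were unnamed, and the first of these gave 25498 genes, with the probe set of the highest mean for the 37 genes with several. Limma 3.58.1 in R 4.3.3 was fitted to 16 arrays with 4 group means. Within each of 5 comparisons the Benjamini-Hochberg adjustment ran over all genes. The fit was tested on simulated data. Figures were drawn with matplotlib 3.10.9 in Python 3.11.15. Members and lists were chosen with earlier results of these data known. Named genes were the 8 members, the 4 genes of smallest p that passed in each list and comparison, and the 3 genes most correlated with each member that passed. The peroxiredoxins, *skn-1*, *dod-3* and the neighbours of the catalases were named after their values were seen. Each fit was repeated without each array, with the replicate number as a block, on the 8 arrays compared, after median centring or cyclic loess, with array weights or an intensity trend, without dim probe sets, with all probe sets, at other thresholds and by the methods' t-test. The food effect averaged over both strains, and the methods' t-test without adjustment, were chosen after seeing the data.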

Additional observations from a re-analysis of the deposited data

Results flagged for a closer look

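In 32 groups of 4 samples, 8 genes in 4 groups, 2 samples stood apart from the others of their group by a gap beyond Dixon's 95% critical value, where chance flags about 1 group in 20. The log2 value of *sod-2* was 8.61 in *alfa-1(ok3062)* well-fed replicate 2, where the other 3 samples lay between 8.32 and 8.36. That of *sod-5* was 5.58 in *alfa-1(ok3062)* starved replicate 2, where the other 3 lay between 5.15 and 5.21.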

How the results depend on the processing

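The calls of *ctl-3* in both strains and of *ctl-1* in N2, at an adjusted p under 0.05, held in each of the 8 fits that left out 1 array of the comparison. They also held in the 10 other fits, which include the food effect averaged over both strains, a different quantity from the effect in either strain. The number of members higher in the starved mutant was 1, and 1 to 2 with an array left out. It was 2 with the 8 arrays compared alone (*sod-4* added), with cyclic loess (*ctl-1*), with array weights (*sod-4*) and by the methods' t-test after adjustment (*ctl-1*). It was 3 with an intensity trend and without dim probe sets (*sod-4* and *ctl-2* in either). The food effect averaged over both strains, which is not the effect in the mutant alone, had 3 members higher, where 18.3% of all genes were. The number in the starved mutant was 4 at an unadjusted p under 0.05 by limma, where 16.3% of all genes were higher, or by the methods' t-test. For the remaining settings the share of all genes in the mutant is not given here, so these counts cannot be set beside it. The number lower there was 0, 0 to 1 with an array left out (*sod-2*, without *alfa-1(ok3062)* starved replicate 1), 1 with array weights (*sod-2*) and 1 at an unadjusted p by limma. In N2 the number higher was 1 where a fold of at least 1.5 was also asked, which *ctl-1* did not reach. At an unadjusted p under 0.05, 2 members were lower in the starved mutant than in starved N2 by limma and 1 by the methods' t-test, and 1 member had a negative interaction by limma.

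Deviations of samples with the same replicate number from their group means correlated between -0.447 and 0.139, so the numbers were not taken to pair samples. With the replicate block 1 member was higher in the starved mutant and 2 in starved N2, and no call of a member changed. Without dim probe sets *sod-3* and *sod-5* had no value.

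Signs turned only in log2 values that did not pass. Centring on the median gave -0.0034 for the interaction of *sod-1*. With array weights *sod-1*, *sod-2* and *sod-5* had 0.0051, 0.017 and 0.049 for starvation in N2, *ctl-2* had 0.0048 between well-fed strains, *sod-1* had -0.0047 between starved strains, and the interactions of *sod-1* and *sod-3* were -0.035 and -0.032. The food effect of *sod-5* averaged over both strains, which is not the effect in N2 alone, was 0.10, beside -0.010 in N2. With an array left out, the starvation change in the mutant was -0.049 to 0.0042 for *sod-1* and -0.037 to 0.12 for *sod-3*. In N2 it was -0.053 to 0.015 for *sod-1*, -0.066 to 0.073 for *sod-2*, -0.045 to 0.0995 for *sod-3*, -0.063 to 0.32 for *sod-4* and -0.085 to 0.060 for *sod-5*. Mutant over N2 was -0.0098 to 0.053 for *sod-1*, -0.15 to 0.0091 for *sod-3* and -0.046 to 0.083 for *ctl-2* in starved worms, and -0.0002 to 0.055 for *sod-1* and -0.049 to 0.032 for *ctl-2* in well-fed worms. The interaction was -0.037 to 0.031 for *sod-1*, -0.050 to 0.11 for *sod-3* and -0.045 to 0.084 for *ctl-2*. The cause of these changes was not tested.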

Other observations

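The average over both strains was a comparison chosen after the values were seen. In it 3 of the 8 members were higher in starved than in well-fed worms and 0 were lower, where 18.3% of all genes were higher and 19.3% lower. The log2 fold change was 0.76 for *ctl-3* (95% interval 0.54 to 0.97, adjusted p = 2.85e-05 from limma), 0.36 for *ctl-1* (interval 0.23 to 0.50, adjusted p = 0.00028) and 0.25 for *ctl-2* (interval 0.09 to 0.40, adjusted p = 0.0128). That of *sod-4* was 0.37 (interval 0.05 to 0.70, adjusted p = 0.0689), and those of the other dismutases lay between -0.16 and 0.10 and did not pass.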
